A study of Mus musculus with 16 samples.

Results

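The genes described here are 10 genes of the disease-associated microglia programme: Trem2, Tyrobp, Apoe, Lpl, Cd68, Cst7, Spp1, Itgax, Cd9 and Axl. They were picked by symbol from the authors' table of 26625 genes, each symbol matched 1 entry, and 10 of 10 passed the filter on low counts that left 18826 genes for testing. RNA came from the medial prefrontal cortex (mPFC) of 16 male C57BL/6 mice aged 8 to 10 weeks. With the control virus there were 3 saline mice (Ctrl + Saline) and 4 morphine mice (Ctrl + Morphine), and with the Kdm7a hairpin 5 saline mice (Kdm7a-shRNA + Saline) and 4 morphine mice (Kdm7a-shRNA + Morphine). Every mouse had an AAV injected into the mPFC on both sides, carrying either a hairpin against the histone demethylase gene Kdm7a or a control hairpin (shNC), and the mice called WT in the labels are those with the control virus. The hairpin was driven by the U6 promoter and EGFP by the CMV promoter, neither of which limits expression to 1 cell type. Which cell types took up the virus was not measured in these data. Morphine mice received 10 mg/kg in place conditioning over 10 days, on days that alternated with saline, and saline mice received saline. The mPFC was collected on day 17, which was withdrawal day 7, right after a place preference test.

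Microglia are the resident macrophages of the brain, and in ageing, demyelination and models of Alzheimer's disease some of them shift to a state with a shared set of induced genes, the disease-associated state. Entry into its later stage is known to need the surface receptor Trem2, which senses lipids and lipoproteins and signals through the adaptor Tyrobp (DAP12). In that state lipid-handling, lysosomal and phagocytic genes rise while genes of resting microglia such as P2ry12, Cx3cr1 and Tmem119, called homeostatic here, fall per cell. A tissue homogenate sums all cells, so more microglia and more RNA of a gene per microglial cell cannot be told apart from these values. For that reason each member is given beside a fixed list of 13 homeostatic microglia genes. The members and all lists were chosen with earlier results of these data known, so their counts are a description.

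In the GENCODE vM21 annotation of GRCm38, all members are protein-coding. Trem2 lies at chr17:48346401-48354147 on the plus strand, Cst7 at chr2:150570415-150578944 (plus), Spp1 at chr5:104435118-104441050 (plus), Lpl at chr8:68880491-68907448 (plus) and Cd68 at chr11:69664213-69666153 (minus). Chromosome 7 holds Apoe at chr7:19696109-19699188 (minus), Axl at chr7:25757273-25788705 (minus), Tyrobp at chr7:30413760-30417585 (plus) and Itgax at chr7:128129547-128150657 (plus). Cd9 lies at chr6:125460266-125494791 (minus) and overlaps the antisense genes Gm28809 and Gm26728. Spp1 shares 1252 bases with Gm42793 on its own strand, and reads of overlapping genes may not be separable.

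Promoter windows in RefSeq (GRCm38.p6) were found for 8 of the 10 members, with none for Tyrobp and Lpl. The 250 bases before the annotated start are shown for the receptor gene Trem2 and for Cst7 and Spp1, the members with the highest fold changes below, as Trem2 chr17:48346151-48346400, Cst7 chr2:150570165-150570414 and Spp1 chr5:104434861-104435110, all on the plus strand, with the first of 2 RefSeq entries used for Spp1. Capitals mark GGAAGT, the core read by ETS factors, a family that includes the myeloid factor PU.1.
Trem2: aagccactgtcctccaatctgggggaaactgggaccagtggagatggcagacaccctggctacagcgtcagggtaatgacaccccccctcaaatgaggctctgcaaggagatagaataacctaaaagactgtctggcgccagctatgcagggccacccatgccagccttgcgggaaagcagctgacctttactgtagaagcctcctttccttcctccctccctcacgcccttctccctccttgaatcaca
Cst7: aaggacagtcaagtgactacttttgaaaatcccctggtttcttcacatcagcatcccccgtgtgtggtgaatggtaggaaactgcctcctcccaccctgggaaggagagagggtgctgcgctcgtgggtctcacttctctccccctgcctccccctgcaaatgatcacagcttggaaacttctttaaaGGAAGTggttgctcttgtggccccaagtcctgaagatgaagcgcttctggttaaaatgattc
Spp1: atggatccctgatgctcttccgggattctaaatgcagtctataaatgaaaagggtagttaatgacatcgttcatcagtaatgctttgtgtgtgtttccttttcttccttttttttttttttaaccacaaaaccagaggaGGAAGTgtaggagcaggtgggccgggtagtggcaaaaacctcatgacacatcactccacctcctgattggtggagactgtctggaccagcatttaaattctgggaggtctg
On either strand, GGAAGT occurs in the windows of Cst7, Spp1 and Itgax, and in 19.7% of 32851 windows of the whole table. In Cst7 the match begins 62 bases before the start and in Spp1 111 bases before it, while the Trem2 window has none. The AP-1 motif TGACTCA occurs in the windows of Itgax and Cd68 and in 4.46% of all windows, and the E-box CACGTG in no member's window and in 6.02% of all. None of the 3 motifs contains another, and a match describes letters only.

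Kdm7a, the target of the hairpin, was measured first. Its normalized CPM (a gene's reads as a share of the library's total, in CPM, after edgeR's scaling) was 9.78, 9.08 and 9.41 in the Ctrl + Saline mice and 5.74, 4.95, 6.04, 6.07 and 4.92 in the Kdm7a-shRNA + Saline mice. Under morphine it was 7.79, 6.19, 8.89 and 8.02 with the control virus and 6.28, 4.44, 3.01 and 6.04 with the hairpin. The saline groups did not overlap, and under morphine 1 hairpin mouse lay above the lowest control mouse. Kdm7a fell by 0.76 on the log2 scale under saline (SE 0.204, edgeR adjusted p = 0.0153) and by 0.67 under morphine (SE 0.206, edgeR adjusted p = 0.0506). Total counts per mouse ran from 6596991 to 12418112, and edgeR's scaling factors from 1.02 to 1.07 in the Ctrl mice and from 0.913 to 0.991 in the Kdm7a-shRNA mice.

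Under the Kdm7a hairpin the members rose. In saline mice 10 of 10 were higher in Kdm7a-shRNA than in Ctrl mice by edgeR's test (the threshold being an adjusted p below 0.05 with a 1.5-fold or larger change), where 7.43% of all tested genes passed as higher. In morphine mice 9 of 10 were higher, all but Apoe, where 2.86% of all tested genes passed as higher. The median log2 fold change of the members was 2.11 under saline and 2.14 under morphine, beside 0.015 and -0.0045 over all tested genes. Under saline every hairpin mouse lay above every control mouse for 10 of 10 members, against 11.1% of all tested genes. Under morphine that held for 8 of 10, the exceptions being Apoe and Axl, against 6.37% of all tested genes. Without Ctrl + Saline replicate 2, or without replicate 3, 6 of 10 members passed under saline, while under morphine leaving out any 1 mouse left between 6 and 9.

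**Figure D1:**
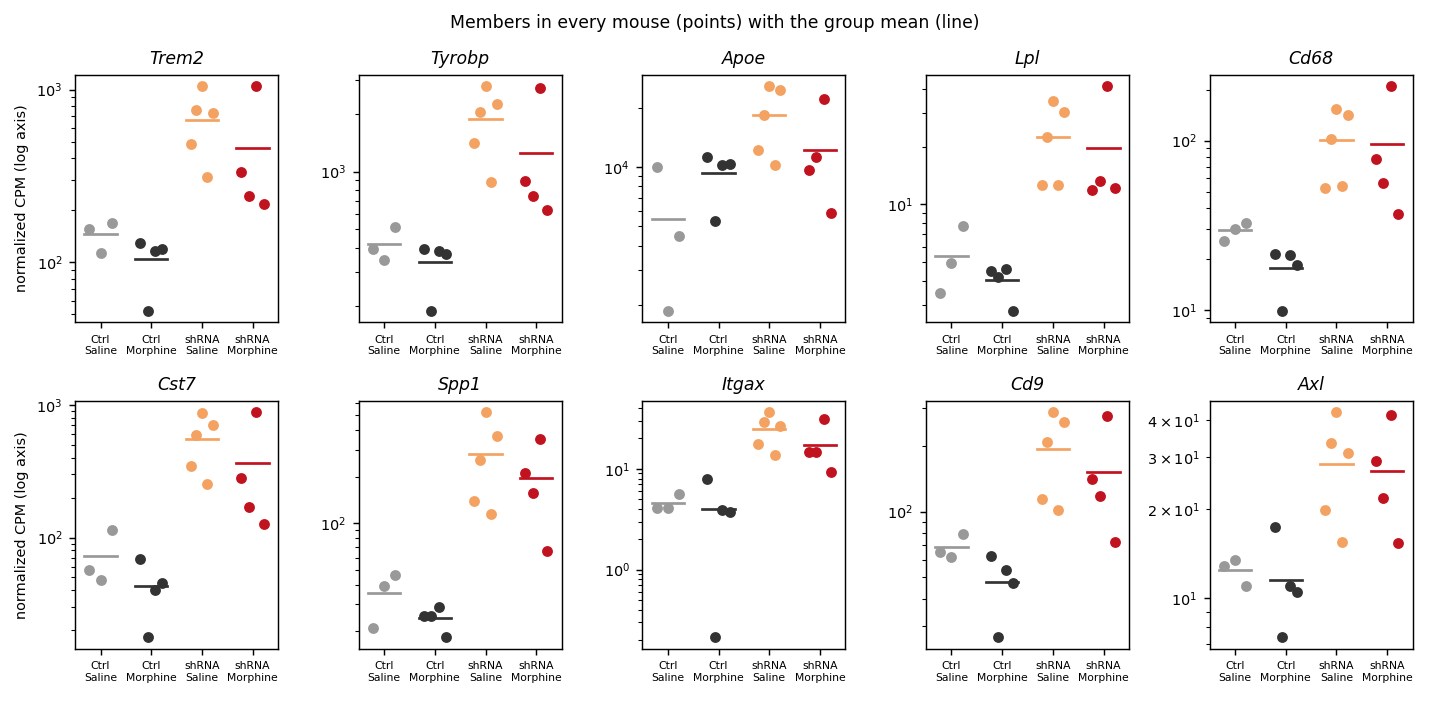
Normalized CPM of the 10 members on a log axis, 1 panel a gene, 1 point a mouse and a line at the group mean, for 7 Ctrl and 9 Kdm7a-shRNA mice in their 4 groups. Under saline the hairpin mice sit above the control mice in all 10 panels, and Kdm7a-shRNA + Morphine replicate 3 is the highest of its group in all 10.

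Trem2 and Tyrobp, receptor and adaptor, come first. Trem2 was at 156, 113 and 169 normalized CPM in Ctrl + Saline mice and at 129.8, 52.3, 116 and 119 in Ctrl + Morphine mice. With the hairpin it was at 487, 763, 1052, 310.1 and 735 under saline and at 333, 242, 1046 and 217 under morphine. No hairpin mouse came down to the control range in either treatment, and replicate 3 of each hairpin group was the highest. The fold change was 4.60 under saline (log2 2.20, SE 0.495, edgeR adjusted p = 0.00594) and 4.41 under morphine (log2 2.14, SE 0.454, edgeR adjusted p = 0.00950). Without Kdm7a-shRNA + Morphine replicate 3 the morphine log2 value was 1.34 (edgeR adjusted p = 0.0361).

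Tyrobp had 393, 348 and 517 normalized CPM in Ctrl + Saline and 397, 187, 387 and 373 in Ctrl + Morphine mice. Its hairpin values were 1412, 2038, 2806, 879.7 and 2244 under saline and 895, 748, 2735 and 632 under morphine. The groups again did not overlap, and, as for Trem2, replicate 3 was highest and replicate 4 lowest in each hairpin group. Tyrobp was 4.47-fold higher under saline (log2 2.16, SE 0.457, edgeR adjusted p = 0.00418) and 3.73-fold higher under morphine (log2 1.90, SE 0.416, edgeR adjusted p = 0.0111), the latter at a log2 value of 1.18 without replicate 3 of the Kdm7a-shRNA + Morphine group (edgeR adjusted p = 0.0435).

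The genes whose levels followed this pair most closely were sought over the 16 mice after subtracting each group's mean, among 14443 other genes with a symbol. For Tyrobp they were Trem2 (Pearson r 0.991), Ly86 (0.984), Tcn2 (0.980), Fcer1g (0.979) and Ucp2 (0.976). For Trem2 they were Tyrobp, Ly86 (0.986), Bcl2a1b (0.977), Fcer1g (0.977) and Rgs10 (0.973). Ly86 and Fcer1g, a co-factor of an innate receptor and an adaptor related to Tyrobp, are genes of myeloid cells at large. Bcl2a1b has near-identical paralogs, so its reads may be split among them. Within each of the 16 points both genes share library, depth and tissue piece, and these values describe likeness only.

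Among the genes of lipid handling, Lpl, which encodes lipoprotein lipase, rose in both treatments, and Apoe, the main brain apolipoprotein and also a product of astrocytes, passed under saline but not under morphine. Lpl had 3.44, 4.98 and 7.68 normalized CPM in Ctrl + Saline mice and 4.49, 4.16, 4.63 and 2.78 in Ctrl + Morphine mice. The hairpin values were 12.6, 22.4, 34.5, 12.6 and 30.3 under saline and 11.95, 13.2, 41.5 and 12.2 under morphine. Groups did not overlap, and in the morphine group replicate 3 stood far above 3 mice that were close to each other. Lpl was 4.19-fold higher under saline (log2 2.07, SE 0.465, edgeR adjusted p = 0.00595) and 4.97-fold higher under morphine (log2 2.31, SE 0.439, edgeR adjusted p = 0.00554), or log2 1.63 without that replicate (edgeR adjusted p = 0.0219).

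Apoe had 10000.0, 1865 and 4483 normalized CPM in Ctrl + Saline mice, the widest spread of any member in that group on the log2 scale. Ctrl + Morphine mice had 11251, 5339.9, 10247 and 10366. The hairpin mice had 12249, 18286, 25789.7, 10265 and 24596 under saline and 9648, 11234, 22099 and 5826 under morphine. Under saline the groups were separate by a small margin, since control replicate 1 came close to the lowest hairpin mouse, and under morphine they overlapped. Apoe was 3.35-fold higher under saline (log2 1.74, SE 0.487, edgeR adjusted p = 0.0184) with a log2 value of 2.47 without Ctrl + Saline replicate 1, and the call was lost without Ctrl + Saline replicate 2 (log2 1.34, edgeR adjusted p = 0.0791) or replicate 3 (log2 1.59, edgeR adjusted p = 0.0926). Under morphine its log2 fold change was 0.39 (SE 0.439, edgeR adjusted p = 0.622) and -0.063 without Kdm7a-shRNA + Morphine replicate 3. The knockdown effect on Apoe under morphine minus that under saline was -1.35 on the log2 scale (SE 0.640, edgeR adjusted p = 0.461, unadjusted p = 0.049).

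Cd68 and Cst7 belong to the lysosome, the former a glycoprotein of its membrane in phagocytes and the latter cystatin F, an inhibitor of cysteine cathepsins. Cd68 had 25.8, 30.2 and 32.9 normalized CPM in Ctrl + Saline and 21.4, 9.92, 21.3 and 18.5 in Ctrl + Morphine mice. The hairpin mice had 52.4, 102, 155, 54.0 and 142 under saline and 77.7, 56.1, 211 and 37.0 under morphine. Neither pair of groups overlapped. Cd68 was 3.41-fold higher under saline (log2 1.77, SE 0.488, edgeR adjusted p = 0.0174), a call lost without any 1 of the Ctrl + Saline mice (edgeR adjusted p of 0.0591 to 0.065), and 5.39-fold higher under morphine (log2 2.43, SE 0.466, edgeR adjusted p = 0.00593). Without Kdm7a-shRNA + Morphine replicate 3 the latter log2 value was 1.68 (edgeR adjusted p = 0.0220).

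Cst7 had 57.1, 47.7 and 114 normalized CPM in Ctrl + Saline and 69.3, 17.7, 40.5 and 45.6 in Ctrl + Morphine mice. Hairpin values of Cst7 were 345, 589.8, 873, 253 and 710.05 under saline and 283, 168, 881 and 126 under morphine. The lowest hairpin mouse of each treatment was above the highest control mouse. Cst7 was 7.61-fold higher under saline (log2 2.93, SE 0.624, edgeR adjusted p = 0.00436) and 8.43-fold higher under morphine (log2 3.08, SE 0.573, edgeR adjusted p = 0.00516), or log2 2.15 without Kdm7a-shRNA + Morphine replicate 3 (edgeR adjusted p = 0.0188).

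Spp1 encodes the secreted protein osteopontin, a ligand of integrins. It had 21.0, 39.1 and 46.2 normalized CPM in Ctrl + Saline mice, and 25.1, 25.2, 28.6 and 18.3 in Ctrl + Morphine mice. With the hairpin Spp1 had 139, 258, 525, 114 and 366 under saline and 213, 156, 353 and 66.7 under morphine. All hairpin mice were above all control mice of their treatment. Spp1 was 7.90-fold higher under saline (log2 2.98, SE 0.531, edgeR adjusted p = 0.00147) and 8.14-fold higher under morphine (log2 3.03, SE 0.486, edgeR adjusted p = 0.00219).

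Of the surface proteins, Itgax is the integrin chain CD11c, Cd9 a tetraspanin and Axl a receptor tyrosine kinase whose ligand Gas6 links it to dying cells. Itgax had 4.10, 4.10 and 5.56 normalized CPM in Ctrl + Saline mice. Ctrl + Morphine mice had 7.99, 0.213, 3.90 and 3.74, and the lowest of these rests on 2 counts. The hairpin groups had 17.5, 29.3, 36.5, 13.8 and 26.8 under saline and 14.6, 14.5, 30.9 and 9.39 under morphine. No groups overlapped within a treatment. Itgax was 5.41-fold higher under saline (log2 2.44, SE 0.557, edgeR adjusted p = 0.00650) and 4.39-fold higher under morphine (log2 2.13, SE 0.514, edgeR adjusted p = 0.0173). The morphine call was lost in a fit of the compared groups alone (edgeR adjusted p = 0.0647) and without Ctrl + Morphine replicate 3 or 4 or Kdm7a-shRNA + Morphine replicate 3 (edgeR adjusted p of 0.0506, 0.0584 and 0.0709), and its log2 value was 2.75 without Ctrl + Morphine replicate 1.

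Cd9 had 65.0, 61.9 and 79.1 normalized CPM in Ctrl + Saline and 62.9, 26.6, 54.3 and 47.2 in Ctrl + Morphine mice. It had 114, 208, 286, 102 and 258 with the hairpin under saline and 141, 119, 276 and 72.6 under morphine. Within each treatment the ranges were separate. Cd9, which oligodendrocytes and endothelium also express, was 2.82-fold higher under saline (log2 1.498, SE 0.401, edgeR adjusted p = 0.0151) and 3.19-fold higher under morphine (log2 1.67, SE 0.377, edgeR adjusted p = 0.0125). These calls were lost without Ctrl + Saline replicate 2 or 3 (edgeR adjusted p of 0.062 and 0.0528) and without Kdm7a-shRNA + Morphine replicate 3 (edgeR adjusted p = 0.053).

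Axl moved least of the members that passed in both treatments. Its normalized CPM was 12.8, 13.5 and 10.99 in Ctrl + Saline and 17.4, 7.36, 10.96 and 10.5 in Ctrl + Morphine mice. The hairpin mice had 19.9, 33.4, 42.5, 15.5 and 30.9 under saline and 29.0, 21.7, 41.6 and 15.3 under morphine. Ranges were separate under saline, and under morphine the highest control mouse lay above the lowest hairpin mouse. Axl was 2.28-fold higher under saline (log2 1.19, SE 0.345, edgeR adjusted p = 0.0222) and 2.33-fold higher under morphine (log2 1.22, SE 0.325, edgeR adjusted p = 0.0259). Its calls held in 4 of 8 fits that left out 1 mouse under saline (without Kdm7a-shRNA + Saline replicate 1, 2, 4 or 5) and in 3 of 8 under morphine (without Ctrl + Morphine replicate 1 or Kdm7a-shRNA + Morphine replicate 2 or 4), with edgeR adjusted p up to 0.103 and 0.111.

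Morphine did not move the members past the threshold under either virus. With the control virus and group terms only, 0 of 10 members passed by edgeR's test, 0 had an unadjusted p under 0.05 and 0 passed by DESeq2. Over all 18826 tested genes 0% passed by edgeR and 185 genes by DESeq2, and without Ctrl + Saline replicate 1 edgeR passed 230 of 19425. An unadjusted edgeR p under 0.05 was held by 2205 of the 18826. The members' log2 changes from Ctrl + Saline to Ctrl + Morphine ran from -0.75 (Cst7, SE 0.578) to 0.77 (Apoe, SE 0.482), with 1 of 10 above 0. With the hairpin the same 3 counts of members were 0 of 10, where 0.00531% of all tested genes passed by edgeR. There the members' log2 changes ran from -0.60 (Cst7, SE 0.502) to -0.07 (Axl, SE 0.297). For the knockdown effect under morphine minus that under saline, 0 of 10 passed by either tool and Apoe alone had an unadjusted p under 0.05, where 0.085% of all tested genes passed by edgeR. The standard errors of that difference, from 0.463 for Axl to 0.764 for Cst7 on the log2 scale, set how small a difference these groups could show. Over all 18826 tested genes, 1321 had an unadjusted edgeR p under 0.05 with the hairpin and 2022 for the difference. These comparisons share mice with the knockdown comparisons. Values for the control virus with the homeostatic genes taken into account are given further below.

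The homeostatic genes were higher under the hairpin as well. The median log2 fold changes of the list were 1.41 under saline and 0.97 under morphine. As higher, 11 of the 13 passed under saline and 5 of 13 under morphine, where 7.43% and 2.86% of all tested genes passed. These counts were unstable: leaving out 1 mouse gave 1 to 12 under saline and 1 to 8 under morphine, the lowest without Ctrl + Saline replicate 2 (4 without replicate 1 or 3) and, under morphine, without Ctrl + Morphine replicate 2, 3 or 4 or Kdm7a-shRNA + Morphine replicate 3. Among the most abundant, the Fc receptor-like gene Fcrls had 138, 160.4 and 287 normalized CPM in Ctrl + Saline and 464, 879, 1367, 367 and 993 in Kdm7a-shRNA + Saline mice. The purinergic receptor gene P2ry12, which falls in activated microglia, had 92.5, 88.2 and 108 in Ctrl + Saline and 112, 140.4, 266, 132 and 238 in Kdm7a-shRNA + Saline mice. Both genes had separate ranges, and both were highest in replicate 3. Fcrls was 4.18-fold higher under saline (log2 2.06, SE 0.537, edgeR adjusted p = 0.0132) and 3.73-fold higher under morphine (edgeR adjusted p = 0.0235). P2ry12 was 1.85-fold higher under saline (log2 0.89, SE 0.292, edgeR adjusted p = 0.0398) and had a log2 fold change of 0.77 under morphine (edgeR adjusted p = 0.0879). Csf1r, the receptor for the survival factor of microglia, was 2.75-fold higher under saline (edgeR adjusted p = 0.0128) with a log2 fold change of 0.84 under morphine (edgeR adjusted p = 0.138).

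Within the hairpin groups the same mice were high for members and for homeostatic genes. Summarised as the mean of log2 normalized CPM and expressed as a fold over the Ctrl + Saline mean, the homeostatic list stood at 1.84, 2.61, 3.67, 1.48 and 3.12 in Kdm7a-shRNA + Saline mice and at 1.5003, 1.27, 3.87 and 1.12 in Kdm7a-shRNA + Morphine mice. The members stood at 2.80, 4.73, 6.86, 2.26 and 5.53 and at 2.77, 2.30, 6.65 and 1.57 in the same mice. Kdm7a-shRNA + Saline replicates 2, 3 and 5 and Kdm7a-shRNA + Morphine replicate 3 were highest for both. The Ctrl mice lay between 0.72 and 1.19 for the homeostatic list and between 0.423 and 1.22 for the members, the lowest of both being Ctrl + Morphine replicate 2. In every one of the 9 hairpin mice the members' fold was the larger of the pair.

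**Figure D2:**
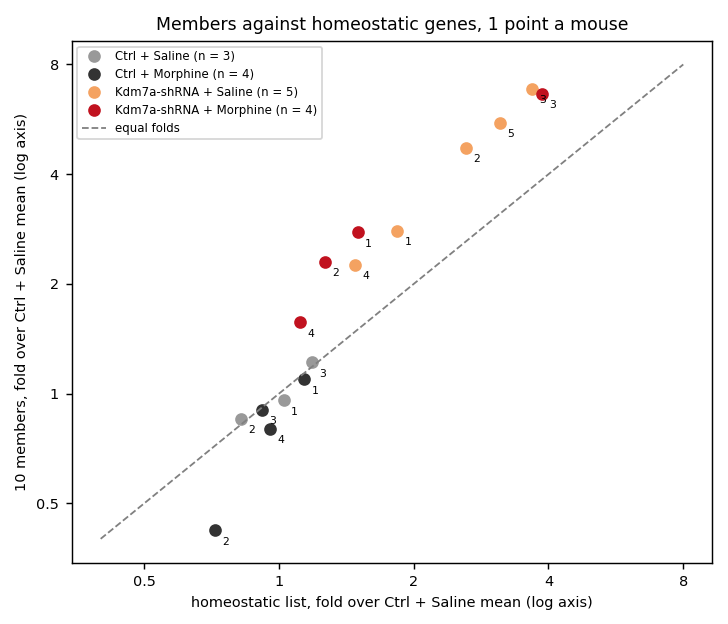
Mean level of the 10 members against that of the 13 homeostatic genes, each as a fold over the Ctrl + Saline mean on log axes, with 1 point a mouse numbered by replicate and a dashed line where both folds are equal. The 9 hairpin mice lie above the line and the 7 Ctrl mice near or below it, with members at 6.86 and 6.65 in the highest hairpin mice.

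Subtracting the homeostatic level of the same mouse from the mean of the members, on the log2 scale, gave 1.28 ± 0.085 (SD, n = 3) in Ctrl + Saline and 1.01 ± 0.343 (SD, n = 4) in Ctrl + Morphine mice. With the hairpin, saline mice had 2.04 ± 0.139 (SD, n = 5) and morphine mice 2.04 ± 0.182 (SD, n = 4). The gap to the controls was 0.76 under saline and 1.03 under morphine, both above the SD within any group. The spread of the members over the hairpin mice shrank when the homeostatic level was subtracted, from an SD of 0.675 to 0.139 under saline and from 0.882 to 0.182 under morphine. The ranges of this difference did not overlap between viruses. For single members, every Kdm7a-shRNA + Saline mouse was above every Ctrl + Saline mouse for 6 of 10 (Trem2, Tyrobp, Cst7, Lpl, Spp1 and Itgax), against 0.372% of all tested genes. That background is low by construction, since subtracting a level that is higher in hairpin mice lowers every gene in them, and among microglial lists the same held for 2 of 13 homeostatic, 2 of 14 pan-myeloid and 4 of 22 other disease-associated genes. Under morphine that held for 8 of 10, all but Apoe and Axl, against 0.377% of all tested genes, a share that is low for the same reason, and for 2 of 13 homeostatic, 4 of 14 pan-myeloid and 9 of 22 other disease-associated genes. No test was made between these lists.

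Spp1 and Cst7 departed farthest from the homeostatic genes. Spp1 relative to the homeostatic level was 0.53 ± 0.635 (SD, n = 3) in Ctrl + Saline and 2.08 ± 0.392 (SD, n = 5) in Kdm7a-shRNA + Saline mice on the log2 scale, and 0.16 ± 0.410 (SD, n = 4) and 2.08 ± 0.552 (SD, n = 4) under morphine. Cst7 went from 1.53 ± 0.439 to 3.15 ± 0.204 under saline and from 0.85 ± 0.550 to 2.77 ± 0.461 under morphine (SD, same mice). Trem2 went from 2.62 ± 0.073 to 3.45 ± 0.201 and from 2.19 ± 0.375 to 3.21 ± 0.231, a smaller step with a narrow spread. Axl stayed within the spread of the mice under saline, at -0.91 ± 0.410 and -1.08 ± 0.141, and Cd9 and Cd68 overlapped there too. Apoe was higher relative to the homeostatic level in Ctrl + Morphine (8.69 ± 0.268) than in Kdm7a-shRNA + Morphine mice (8.10 ± 0.334), with overlapping ranges.

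**Figure D3:**
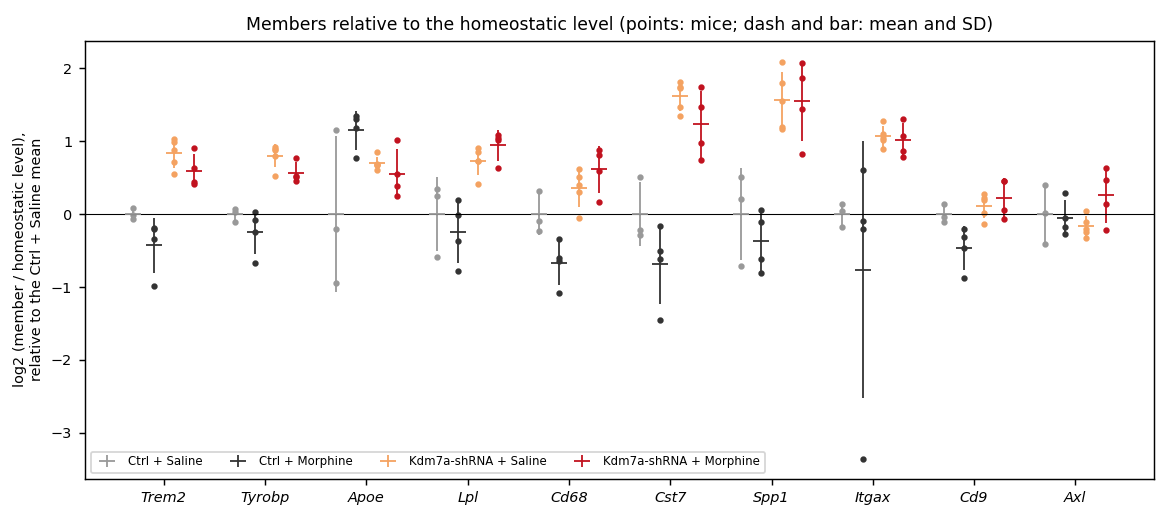
Each member's log2 normalized CPM minus the homeostatic level of the same mouse, set to 0 at the Ctrl + Saline mean, with 1 point a mouse and the mean and SD per group. Cst7 and Spp1 show the highest hairpin groups, Apoe and Axl show overlap between viruses under morphine, and the low Ctrl + Morphine point of Itgax rests on 2 counts.

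A fit with the homeostatic level of each mouse as a covariate compares the viruses at equal homeostatic level. Under saline 1 of 10 members then passed, Cst7, where 2.67% of all tested genes passed as higher. Cst7 kept a 1.85-fold difference (log2 0.89, SE 0.233, edgeR adjusted p = 0.0279). Spp1 had a log2 value of 1.33 (SE 0.418, edgeR adjusted p = 0.0601), Trem2 0.47 (SE 0.175, edgeR adjusted p = 0.112) and Tyrobp 0.55 (SE 0.156, edgeR adjusted p = 0.038, under the 1.5-fold limit). Cd68, Cd9 and Axl were at 0.01, 0.03 and 0.05. In these saline groups the homeostatic level itself separated the viruses, since no hairpin mouse fell in the control range, so the covariate and the virus cannot be fully told apart.

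Under morphine 1 hairpin mouse (4.71 on the log2 scale) lay below the highest control mouse (4.74) in homeostatic level and the other 3 lay above all controls, so the same limit applies. There 7 of 10 members passed in that fit (Trem2, Tyrobp, Lpl, Cd68, Cst7, Spp1 and Cd9), and 1.09% of all tested genes passed as higher. Spp1 was 3.59-fold higher (log2 1.85, SE 0.336, edgeR adjusted p = 0.00474) and Cst7 2.63-fold higher (log2 1.40, SE 0.196, edgeR adjusted p = 0.00110). Lpl kept a log2 difference of 1.15, Cd68 1.05, Trem2 0.74, Cd9 0.63 and Tyrobp 0.62, with edgeR adjusted p of 0.0124, 0.00491, 0.00747, 0.0374 and 0.0102. Itgax had 1.15 (edgeR adjusted p = 0.0896), Axl 0.45 (edgeR adjusted p = 0.252) and Apoe -0.62 (edgeR adjusted p = 0.314). With the level of 14 pan-myeloid genes as the covariate instead, a choice made after the data were seen, 0 of 10 passed under saline and 4 of 10 under morphine. The homeostatic list too was chosen with earlier results of these data known. With the pan-myeloid covariate 1190 of 18826 tested genes passed under morphine in either direction, beside 921 with the homeostatic one. In the homeostatic fit 0 of 10 members passed for the morphine minus saline difference in knockdown effect, the smallest adjusted p being that of Cd68 (log2 1.04, SE 0.238, edgeR adjusted p = 0.0582).

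**Figure D4:**
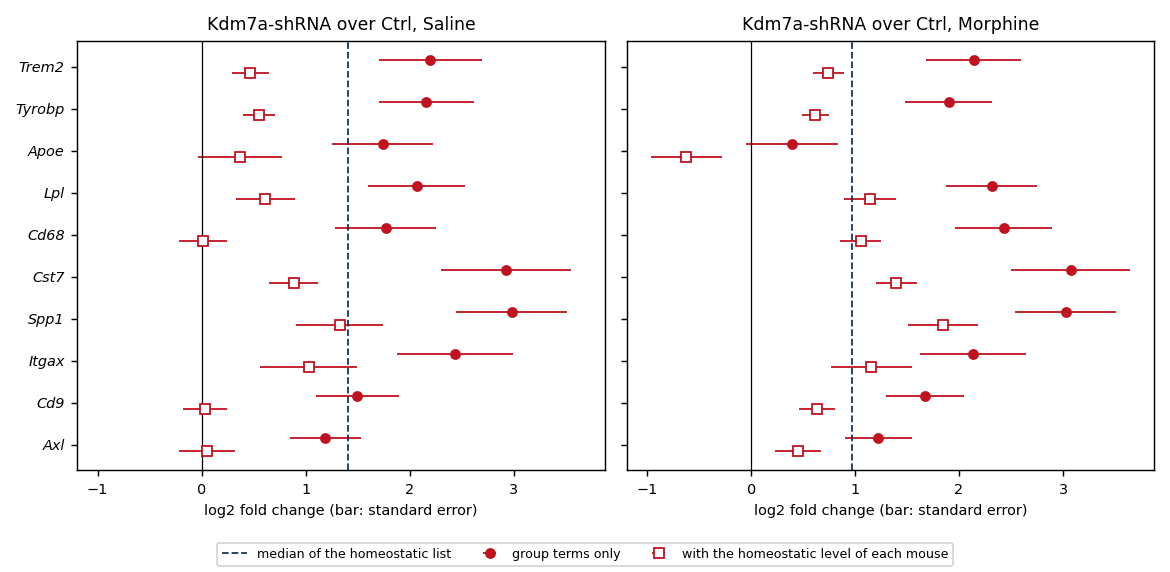
Log2 fold change of each member in Kdm7a-shRNA over Ctrl mice with its standard error, under saline (left, 5 against 3 mice) and morphine (right, 4 against 4), from the fit with group terms only (filled) and with the homeostatic level of each mouse (open). The dashed line is the median of the homeostatic list, 1.41 and 0.97, and the open points lie closer to 0 than the filled ones for every member except Apoe under morphine.

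Other genes of the disease-associated programme, from a list of 22, were higher for 17 genes with saline and 13 with morphine. The share of all tested genes that passed as higher was 7.43% and 2.86%. The list's median log2 fold changes were 1.57 and 1.29. Ccl6, a chemokine, was at 7.08 ± 2.66 (SD, n = 3) normalized CPM in Ctrl + Saline and 62.1 ± 32.7 (SD, n = 5) in Kdm7a-shRNA + Saline mice, and its fold changes were 8.86 and 6.77 (edgeR adjusted p of 0.00141 and 0.00516). The lectin receptor gene Clec7a was 4.37-fold and 5.54-fold higher (edgeR adjusted p of 0.00593 and 0.00496). The lysosomal protease gene Ctsl was 2.76-fold higher under saline (edgeR adjusted p = 0.00598), and the growth factor gene Igf1 6.95-fold higher under morphine (edgeR adjusted p = 0.00552), from 2 to 41 counts in Ctrl + Morphine and 77 to 310 in Kdm7a-shRNA + Morphine mice.

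Of 14 genes of Trem2 signalling and shedding, 4 were higher under saline and 3 under morphine, where 7.43% and 2.86% of all tested genes were. Hcst (DAP10), an adaptor that partners Trem2 beside Tyrobp, was 4.49-fold higher under saline and 3.09-fold higher under morphine (edgeR adjusted p of 0.00809 and 0.0357). The phospholipase gene Plcg2 was 3.34-fold higher under saline (edgeR adjusted p = 0.0176), and the phosphatase gene Inpp5d, an inhibitor of the pathway, 2.17-fold higher under morphine (edgeR adjusted p = 0.0485). Clu, a lipoprotein that Trem2 binds and a product of astrocytes, was 2.48-fold and 2.04-fold higher (edgeR adjusted p of 0.000821 and 0.00589).

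Among 20 tested genes of lipoprotein and lipid handling, 5 were higher under saline, and 3 were higher and 1 lower under morphine. Over all tested genes 7.43% and 2.86% passed as higher, and 910 of 18826 passed as lower under morphine. The cholesterol carrier gene Npc2 was 2.50-fold and 2.42-fold higher, the lipid droplet gene Plin2 2.53-fold and 2.90-fold, and the sterol exporter gene Abcg1 1.63-fold under morphine (edgeR adjusted p of 0.0150, 0.0231, 0.0159, 0.0125 and 0.0283 in that order). Lrp8, a neuronal receptor for Apoe, fell by 0.70 on the log2 scale under morphine (SE 0.201, edgeR adjusted p = 0.0371). Cd36, a scavenger receptor gene, had 0 to 1 counts in Ctrl + Saline and 18 to 25 in Kdm7a-shRNA + Saline mice and passed (edgeR adjusted p = 0.00711), and no fold is given against counts of that size.

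Partners of the other members were covered by short lists of 4 to 7 genes. Beside them, 7.43% of all tested genes passed as higher under saline and 2.86% under morphine. Of 18826 tested genes, 6536 under saline and 4805 under morphine had an unadjusted edgeR p under 0.05, in either direction. DESeq2 passed 1697 of them under morphine, in either direction. Pros1, a ligand of the Axl family, was 2.69-fold and 2.87-fold higher (edgeR adjusted p of 0.00878 and 0.00991), alone among 4 genes of that family and its ligands. Under saline, Itgb2, the chain that pairs with Itgax, was 3.65-fold higher and Itgb5, an osteopontin receptor chain, 3.02-fold higher (edgeR adjusted p of 0.0207 and 0.0200), 2 of 6 integrin and osteopontin partners. Under morphine 0 of these 6 passed by edgeR or DESeq2, and 1 had an unadjusted p under 0.05. The tetraspanins Cd82 and Cd151 were 2.33-fold and 1.71-fold higher under morphine (edgeR adjusted p of 0.0176 and 0.0399), 2 of 5 tetraspanins and Cd9 partners, where 0 of 5 passed under saline by either tool and 2 had an unadjusted p under 0.05. Of 7 cystatin, cathepsin and LAMP genes 3 were higher under saline (Lgmn 1.96-fold, Cst3 1.62-fold and Ctsh 2.33-fold, edgeR adjusted p of 0.0329, 0.0338 and 0.0371) and 2 under morphine (Lamp2 2.06-fold and Ctsh 2.37-fold, edgeR adjusted p of 0.0266 and 0.0427), where DESeq2 passed 5 of 7 and 5 had an unadjusted p under 0.05.

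Markers of other cells were read beside the members, and beside the 7.43% (saline) and 2.86% (morphine) of all tested genes that passed as higher. At an unadjusted edgeR p under 0.05, in either direction, were 6536 of 18826 tested genes under saline and 4805 under morphine. Of 14 pan-myeloid genes 13 were higher under saline and 9 under morphine, with C1qb, Spi1 and Ly86 leading under saline (4.12-fold, 6.90-fold and 4.29-fold, edgeR adjusted p of 0.00652, 0.00680 and 0.00811) and Ly86, C1qc and Cyba under morphine (4.03-fold, 3.53-fold and 2.70-fold, edgeR adjusted p of 0.0139, 0.0160 and 0.0209). Of 7 tested perivascular macrophage genes 0 passed in either treatment by edgeR or DESeq2, with 0 and 1 at an unadjusted p under 0.05. Their summed normalized CPM ran from 13.1 to 26.5 in Ctrl and from 19.6 to 53.3 in hairpin mice. Of 9 tested blood leukocyte genes 0 passed by either tool, with 0 and 2 at an unadjusted p under 0.05. Their sum ran from 9.497 to 42.4 in Ctrl and from 8.05 to 47.1 in hairpin mice, and S100a8, S100a9 and Retnlg of neutrophils and Cd79a of B cells were among the genes at 0 in at least 1 mouse.

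Astrocyte genes passed as higher for 2 of 12 under saline (Aldh1l1 2.16-fold and Gfap 2.57-fold, edgeR adjusted p of 0.0338 and 0.0485) and for 0 of 12 under morphine by edgeR, 2 of 12 by DESeq2 and 4 of 12 at an unadjusted p under 0.05. Their sum ran from 7894 to 12119 in Ctrl and from 8717 to 10837 in hairpin mice. For this list and the next ones, 7.43% of all tested genes passed as higher under saline and 2.86% under morphine. An unadjusted edgeR p under 0.05, in either direction, was held by 6536 of 18826 tested genes under saline and 4805 under morphine. DESeq2 passed 1697 under morphine, in either direction. Of 10 endothelial genes 3 were higher under saline (Cldn5, Flt1 and Pecam1, 2.66-fold, 1.56-fold and 1.60-fold, edgeR adjusted p of 0.0154, 0.0309 and 0.0442) and 2 under morphine (Esam and Pecam1, 1.59-fold and 1.71-fold, edgeR adjusted p of 0.0125 and 0.0323). Of 11 oligodendrocyte genes 0 passed under saline by either tool, with 1 at an unadjusted p under 0.05, and Opalin was 2.03-fold higher under morphine (edgeR adjusted p = 0.0469). The oligodendrocyte sum was 8550, 18671, 18183, 9170 and 17776 in Kdm7a-shRNA + Saline mice, highest in replicates 2, 3 and 5, the mice highest for the members, and 7177 to 13355 in Ctrl mice. In Kdm7a-shRNA + Morphine mice it was 20159, 16731, 13244 and 9052, and replicate 3, the highest for all 10 members, was below replicates 1 and 2. The share of reads on loci that the authors assembled was 7.79 to 8.15% in Kdm7a-shRNA + Saline replicates 2, 3 and 5. It was 10.2 to 10.4% in replicates 1 and 4 of that group. The part of these differences in the members' values was not tested.

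Precursor, mural and neuronal markers are given beside all 18826 tested genes. Among those, 1398 passed as higher and 1753 as lower under saline, and 538 and 910 under morphine. Under morphine 4805 of them had an unadjusted edgeR p under 0.05 and 1697 passed by DESeq2, in either direction. Vcan was 1.77-fold higher among 5 oligodendrocyte precursor genes and Col1a1 2.62-fold higher among 11 mural and fibroblast genes under saline (edgeR adjusted p of 0.0426 and 0.0338). Under morphine 0 of 5, 0 of 11 and 0 of 9 neuronal genes passed by edgeR, with 0, 4 and 1 at an unadjusted p under 0.05 and 0, 1 and 0 passing by DESeq2. Of 9 neuronal genes under saline, Nrgn was 2.79-fold higher and Gad2 fell by 0.63 on the log2 scale (edgeR adjusted p of 0.0141 and 0.0360).

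**Figure D5:**
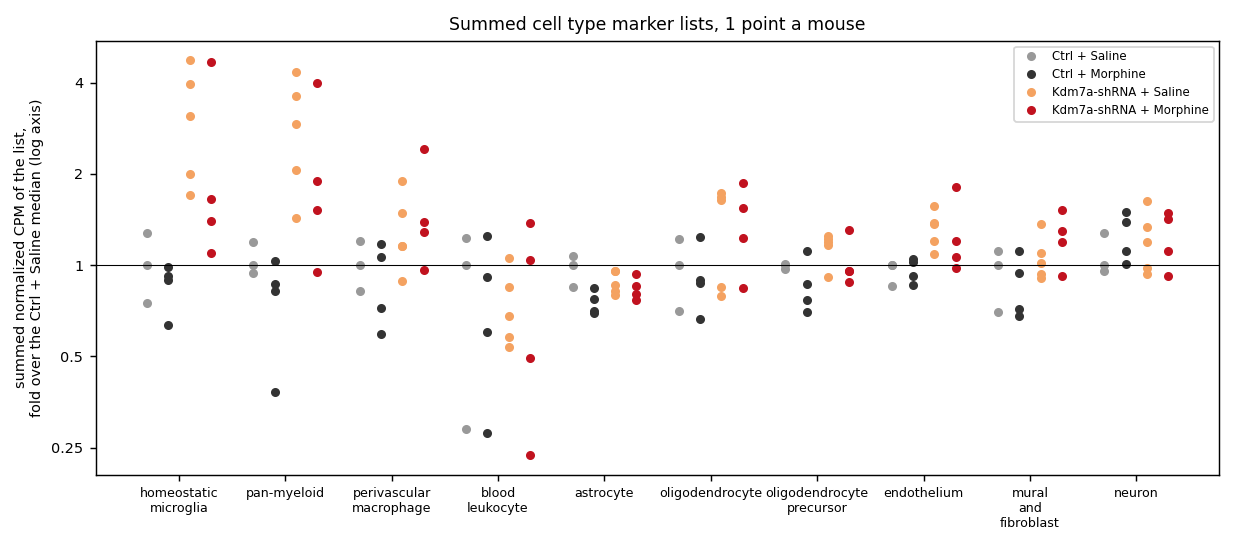
Summed normalized CPM of 10 cell type marker lists in every mouse, as a fold over the Ctrl + Saline median on a log axis, coloured by group. The highest homeostatic and pan-myeloid sums are those of hairpin mice, the blood leukocyte sums of hairpin mice lie within the range seen in Ctrl mice except 1 mouse above and 1 below it, and the oligodendrocyte sums split the Kdm7a-shRNA + Saline mice.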

How the data were processed

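The mPFC of 16 mice was sequenced by Nanopore cDNA-PCR. Per the methods, the authors removed short, low-quality and ribosomal reads, kept full-length non-chimeric reads, and aligned them to mm10 with minimap2. The submitters' processing notes list edgeR 3.8.6. The deposited counts are reads per gene as the authors counted them, with no normalization. The deposited CPM values equal each count divided by its mouse's total and scaled to CPM, with a largest difference of 4.99e-06, and were used only for that check.

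The tests ran in edgeR 4.0.16 (R 4.3.3): filterByExpr over the 4 groups, TMM factors, a quasi-likelihood fit with 1 coefficient per group over all 16 mice, and Benjamini-Hochberg adjustment over 18826 genes. A gene passed with an adjusted p below 0.05 and a 1.5-fold or larger change. Standard errors are the log2 fold change over the square root of F. The homeostatic level is the mean log2 normalized CPM of 13 genes, prior count 1. TMM factors were lower in hairpin mice, and normalized CPM divides by them. Values are not corrected for gene length and are not compared between genes.

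The members and the 17 other lists were chosen with earlier results of these data known. Named genes are the members, Kdm7a, the 4 most abundant homeostatic genes, up to 3 higher and 3 lower passing genes of each other list per knockdown comparison, and the 5 genes most like Tyrobp and Trem2. The labels tie each library to 1 mouse, and within a group the counts of mice differed by more than sampling noise (chi-square per degree of freedom from 8.33 to 51.21 over 25 pairs). A value of 3 counts corresponds to 0.258 to 0.460 normalized CPM, which covers counting error only. The fit was tested on simulated data. The alternatives tried were RLE factors, library size only, no filter, at least 10 counts in every mouse, the compared groups alone, DESeq2 1.42.0, a replicate block, genes with a symbol only, no fold limit, covariates, and leaving out each mouse. Transcripts were not analysed here, and some genes that the naming rule gives are not reported here.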

Additional observations from a re-analysis of the deposited data

Results flagged for a closer look

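In 30 sets of values, 10 members in each of the 3 groups of 4 or 5 mice, a single mouse was checked for standing apart from the rest of its group, and 4 sets had one. Chance marks about 1 in 20 independent sets, but these sets share mice, so their number cannot be set against that rate. In Ctrl + Morphine mice, replicate 2 was far below the other 3 for Trem2 (52.3 normalized CPM against 116 to 129.8), for Tyrobp (187 against 373 to 397) and for Apoe (5339.9 against 10247 to 11251). In Kdm7a-shRNA + Morphine mice, replicate 3 was far above the others for Lpl (41.5 against 11.95 to 13.2). Without Ctrl + Morphine replicate 2, 8 of 10 members passed under morphine, and without Kdm7a-shRNA + Morphine replicate 3, 6 of 10.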

How the results depend on the processing

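No replicate number in the labels stands for a shared animal, and same-numbered mice did not deviate together in every pair (correlations from -0.0886 to 0.366). With a replicate block 10 members passed under saline and 9 under morphine, and no member's call changed. The counts of 10 and 9 stayed at 8 or above without covariates and with all mice kept, except 7 under morphine in a fit of the compared groups alone. Leaving out 1 mouse gave 6 to 10 members under saline and 6 to 9 under morphine. The homeostatic covariate left 1 member under saline and the pan-myeloid covariate 0, and the latter left 4 under morphine. With the pan-myeloid covariate 1190 of 18826 tested genes passed under morphine, in either direction. Signs turned for Apoe under morphine (-0.62 with the homeostatic covariate, -0.81 with the pan-myeloid one and a range of -0.063 to 0.62 when leaving out 1 mouse, the lowest without Kdm7a-shRNA + Morphine replicate 3), and under saline with the pan-myeloid covariate for Cd68 (-0.044), Cd9 (-0.061) and Axl (-0.11). Of the homeostatic list, 7 genes passed under saline with library size only, with at least 10 counts in every mouse, and with genes with a symbol only, and 2 under morphine in the compared groups alone and with genes with a symbol only. With the homeostatic covariate 0 passed, which is no separate result because the covariate is built from the same genes, and with the pan-myeloid one 0. Leaving out 1 mouse gave 1 to 12 under saline and 1 to 8 under morphine. The cause of these shifts was not tested. With 3 Ctrl + Saline mice, calls near the threshold rest on few animals, and counts per mouse of 2 to 80 limit Itgax in Ctrl + Morphine mice.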
